A study of Mus musculus with 8 samples.

Results

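Genes for chromatin modifiers and nucleosome remodellers were described in whole-genome bisulfite sequencing of mouse hippocampal DNA. Members were picked out by gene symbol, as all genes of the Kdm, Kmt, Setd, Ehmt, Ezh, Prdm, Hdac, Sirt, Mta, Ncor, Chd, Smarc, Arid, Brd, Cbx, Mbd, Dnmt and Tet families, and these families were chosen with earlier results of these data known. They accounted for 60 of the 9329 differentially methylated regions (DMRs) listed, or 58 of 8271 when each gene, feature, direction and comparison was counted once, and for 42 of 4901 genes. The 42 include Smarca5 ps, a pseudogene, and Dnmt3aos, a non-coding RNA gene antisense to Dnmt3a. Neither stands for the protein-coding gene it is named after.

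The study asked whether the loss of DNA glycosylases changes the hippocampal methylome. DKO mice lacked both Ogg1, which removes oxidised guanine from DNA, and Mutyh, which removes adenine mispaired with it. Mutyh-/- and Ogg1-/- mice lacked 1 of them, and WT mice neither. All were 6-month-old male C57BL/6N mice, the DKO line came from a cross of both single knockout lines, and whole hippocampus was used, so that a change within cells and a change in the proportions of cell types cannot be told apart. The tables hold methylation only, and the tissue label could not be checked against expressed markers. Each of the 4 genotypes had 2 libraries, which the labels number but do not tie to separate animals, so the spread between them may be technical.

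A DMR is a window that the authors called in a knockout against WT. Windows reached 1 kb to either side of where transcription starts (TSS) or ends (TES), or covered the gene body in between. A call needed a relative ratio beyond 0.1, with the same sign in all 4 pairs of a knockout and a WT library. Recomputed on a score of 1 plus the methylated fraction, the ratio lay within 0.0121 of the deposited one. The ratio is thus not one of levels, and the Cbx8 TES difference of -21 percentage points in DKO had a smallest ratio of 0.107. The levels given are medians over the cytosines that the tool kept, in percent, for each library. The median was taken anew for each library pair, so that a library's level could differ between its pairs, and the mean over its 2 pairs is given. Every region was thus chosen for its difference, all values are descriptive, and no further test was run. With 2 libraries against 2, a two-sided exact permutation test cannot go below 0.333. The library ranges did not overlap in any of the 58 regions, as in 8212 of all 8271, a count that the demand for 1 sign in all pairs largely sets. In the least different pair, the size of the relative ratio was under 0.12 in 50 of the 58 regions (median 0.106, all called regions 0.107), so most calls lay close to the threshold. The coverage behind each value is unknown.

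Methylation of CG sites is laid down by the Dnmt enzymes, oxidised by the Tet enzymes and read by Mbd proteins. Histone marks are written, removed and read by the methyltransferases, demethylases, deacetylases, bromodomain and chromodomain proteins, and nucleosomes are moved by the Smarc and Chd ATPases. In neurons these families are known for their part in activity-dependent transcription and memory, and mutations in several of them cause neurodevelopmental syndromes.

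Of the 5 TSS windows called, the one that changed most in each genotype is shown by its promoter, since the spacing of CG sites differed widely between them. The sequences are RefSeq promoters of GRCm38.p6, 250 bases before to 50 bases after the annotated start, 5′ to 3′ on the gene's strand. Mta2 lies at chr19:8941670-8941969 on the plus strand, Dnmt3aos at chr12:3862195-3862494 on the minus strand and Smarcd2 at chr11:106267583-106267882 on the minus strand. Capitals mark each CG, searched as the letters CG, which read the same on both strands.
Mta2: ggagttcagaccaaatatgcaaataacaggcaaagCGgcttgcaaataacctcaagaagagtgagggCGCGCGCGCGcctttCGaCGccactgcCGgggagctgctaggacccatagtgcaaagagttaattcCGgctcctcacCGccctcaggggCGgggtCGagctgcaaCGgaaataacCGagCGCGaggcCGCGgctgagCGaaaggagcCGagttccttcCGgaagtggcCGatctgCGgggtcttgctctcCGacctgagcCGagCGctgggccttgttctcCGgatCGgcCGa
Dnmt3aos: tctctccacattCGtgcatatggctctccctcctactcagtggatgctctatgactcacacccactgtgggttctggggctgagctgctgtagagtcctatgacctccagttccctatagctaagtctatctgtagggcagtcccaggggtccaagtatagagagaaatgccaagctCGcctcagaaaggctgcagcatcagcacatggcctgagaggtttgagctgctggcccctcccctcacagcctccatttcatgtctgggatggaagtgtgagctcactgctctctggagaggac
Smarcd2: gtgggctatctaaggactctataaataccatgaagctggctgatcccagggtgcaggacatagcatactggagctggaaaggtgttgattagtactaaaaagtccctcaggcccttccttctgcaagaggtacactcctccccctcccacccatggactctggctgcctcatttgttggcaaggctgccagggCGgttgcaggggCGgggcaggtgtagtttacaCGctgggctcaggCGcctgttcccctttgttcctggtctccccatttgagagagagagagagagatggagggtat
The Mta2 promoter holds 30 CG sites, and 89.4% of the 32851 RefSeq promoters hold as many or fewer. The Dnmt3aos promoter holds 2 and the Smarcd2 promoter 4, against a median of 7 (quartiles 3 and 20), and 94.6% of all promoters hold at least 1. The Smarcd2 sequence lies inside the RefSeq gene (chr11:106263171-106272998), at an internal start.

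CG hypomethylation was the more frequent direction in all 3 genotypes. Of the 43 CG regions of these genes, 33 were hypomethylated and 10 hypermethylated, so that 76.7% were losses, beside 63.3% of the 4369 CG regions of all genes. By genotype, 13 of 18 were losses in DKO, 10 of 13 in Mutyh-/- and 10 of 12 in Ogg1-/-, which is 72.2%, 76.9% and 83.3%. Over all genes the shares of losses were 60.6% in DKO, 67.4% in Mutyh-/- and 61.5% in Ogg1-/-. The 3 comparisons used the same WT libraries.

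A CG region was called in 17 of the 141 protein-coding members annotated in DKO (12.1%), where the share over all 21883 protein-coding genes was 6.35%. It was called in 12 of 141 in Mutyh-/- (8.51%, all genes 6.3%) and in 12 of 141 in Ogg1-/- (8.51%, all genes 5.29%). These genes are long, with a median RefSeq span of 43.1 kb beside 17.2 kb for all protein-coding genes, and a longer gene offers a longer body window, whose part in the share of genes called was not tested. Counting CG and CHH together, 40 of the 141 (28.4%) had a region in some genotype, beside 4431 (20.2%) of all protein-coding genes, and 101 had none.

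The size of the differences was like that of other called genes. All of them passed the same threshold in all 4 pairs, which largely sets this size. The median difference was 21.8 percentage points over the 10 gains and -21.0 points over the 33 losses, beside 21.3 and -21.3 points over all called CG regions. Gains lay in windows with a median WT level of 57.8% (all genes 62.3%), and losses in windows with a median WT level of 78.0% (all genes 74.8%). The call bears on these levels too, since a gain needs room above the WT level and a loss room below it. The WT libraries differed more between themselves at the gains (median SD 5.66 points, all genes 3.89) than at the losses (1.77 points, all genes 2.47).

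At the TSS, the largest loss was that of Mta2, a subunit of the NuRD deacetylase and remodelling complex. Its window (chr19:8940920-8942919, 133 CG sites) had levels of 34% and 60.5% in the DKO libraries, against 83% and 88.5% in the WT libraries. The difference of -38.5 points (-48.5 to -28.5 with each library left out in turn) was as large as the largest TSS loss of any gene called, and the DKO libraries differed from each other by more than the WT libraries did. Of this window, 73.6% also lies in exons of Eml3 or Gm10353, so the value cannot be given to Mta2 alone.

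Smarca5 codes for the ISWI ATPase SNF2H. Its CG-dense TSS window (chr8:80738460-80740459, 186 CG sites) had 61% and 28% in DKO, against 63% and 75% in WT, so the nearest libraries were only 2 points apart. The difference was -24.5 points, and -30 to -19 points with each library left out in turn. Both WT libraries shifted between their pairings in this window, with 83% and 94% when paired with DKO replicate 1 and 43% and 56% when paired with DKO replicate 2. The change of 40 points in 1 of them was the largest among the CG regions of these genes, where the median was 4 points. Smarca5 ps had 43.5% and 50% at its TSS in DKO, against 68.5% and 67% in WT. As a near copy of Smarca5 it may share reads with it, and how the alignment placed such reads is not given in the sources used here.

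Smarcd2, a BAF subunit, was the only TSS loss in Ogg1-/-, with 54.5% and 48% against 72.5% and 76% in WT, a difference of -23.0 points. The window (chr11:106266633-106268632, 40 CG sites) lies wholly inside the RefSeq gene, with 73.8% of it in introns and 24.3% in coding exons, so the start used lies within the gene. The only TSS gain was that of Dnmt3aos in Mutyh-/-, with 90% and 84.5% against 60% and 68.5% in WT, a difference of 23.0 points. This window (chr12:3861245-3863244, 20 CG sites) lies entirely within Dnmt3a, the gene of a de novo DNA methyltransferase, and in none of its exons, so it measures intronic DNA of Dnmt3a as much as the start of Dnmt3aos. No window of Dnmt3a itself was among the called regions.

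At the TES, 11 of 13 called windows were losses (84.6%, all genes 82.8%). Kdm6b, which codes for the H3K27 demethylase JMJD3, was the only one of these genes with a TES called in all 3 genotypes. Its levels were 50% and 46% in DKO, 41.5% and 40% in Mutyh-/- and 42.5% and 52% in Ogg1-/-. The WT libraries had 67% and 69.5% in the DKO comparison, 68% and 67.5% in that of Mutyh-/- and 72% and 71.5% in that of Ogg1-/-. The differences were -20.3, -27.0 and -24.5 points, and every knockout library was at least 17 points below its WT libraries. The window (chr11:69397518-69399517) is 50.5% non-coding exon of Kdm6b, the part around its end, and 35.8% of it lies in the neighbouring gene Tmem88.

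Cbx8 and Chd5 each lost CG methylation at the TES in 2 genotypes. Cbx8, a PRC1 chromodomain protein that binds the Polycomb mark H3K27me3, had 50% and 50.5% in DKO, against 74.5% and 68% in WT, and 51.5% and 53.5% in Mutyh-/-, against 74% and 67% in WT. Its window (chr11:119037436-119039435) lies inside the RefSeq gene, 38% in coding and 62% in non-coding exon. Chd5, a NuRD remodeller that is expressed mainly in neurons, had 60% and 62% in Mutyh-/-, against 81% and 80% in WT, and 55.5% and 59% in Ogg1-/-, against 81.5% and 78% in WT. Of the Chd5 window (chr4:152389195-152391194), 50% is non-coding exon of Chd5 and 22.6% exon of Kcnab2.

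The other TES losses were each called in 1 genotype. In Mutyh-/-, Mta3, another NuRD subunit, had 41.5% and 36.5%, against 67.5% and 62.5% in WT, a difference of -26.0 points. Its window (chr17:83791878-83793877) is 83.2% intron and lies wholly inside the RefSeq gene, so the end used lies within the gene. In DKO, Hdac6, an X-linked deacetylase that acts on tubulin, had 69.5% and 78%, against 100% in both WT libraries. Mbd1, which binds methylated CG sites, had 58% and 54% in DKO, against 79% and 72.5% in WT. Of the Mbd1 window, 29.2% lies in the neighbouring gene Cfap53, and 8.4% in exons of that gene. In Ogg1-/-, Hdac5, a class IIa deacetylase that shuttles between nucleus and cytoplasm in neurons, had 67% and 64%, against 86% and 85.5% in WT. In each of these 4 windows the library ranges were at least 14.5 points apart.

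Only 2 TES windows were gained, both in DKO. Setd6, a methyltransferase of non-histone proteins such as RelA, had 82% and 81.5%, against 57.5% and 59% in WT (difference 23.5 points). Sirt3, a mitochondrial deacetylase, had 71.5% and 69%, against 51.5% and 50% in WT (19.5 points). Both windows are shared with a neighbour, since 53.7% of the Setd6 window (chr8:95718005-95720004) is exon of Cnot1 and 53.4% of the Sirt3 window (chr7:140862663-140864662) is exon of Ric8a. The Setd6 window also lies wholly inside the RefSeq gene of Setd6.

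**Figure D1:**
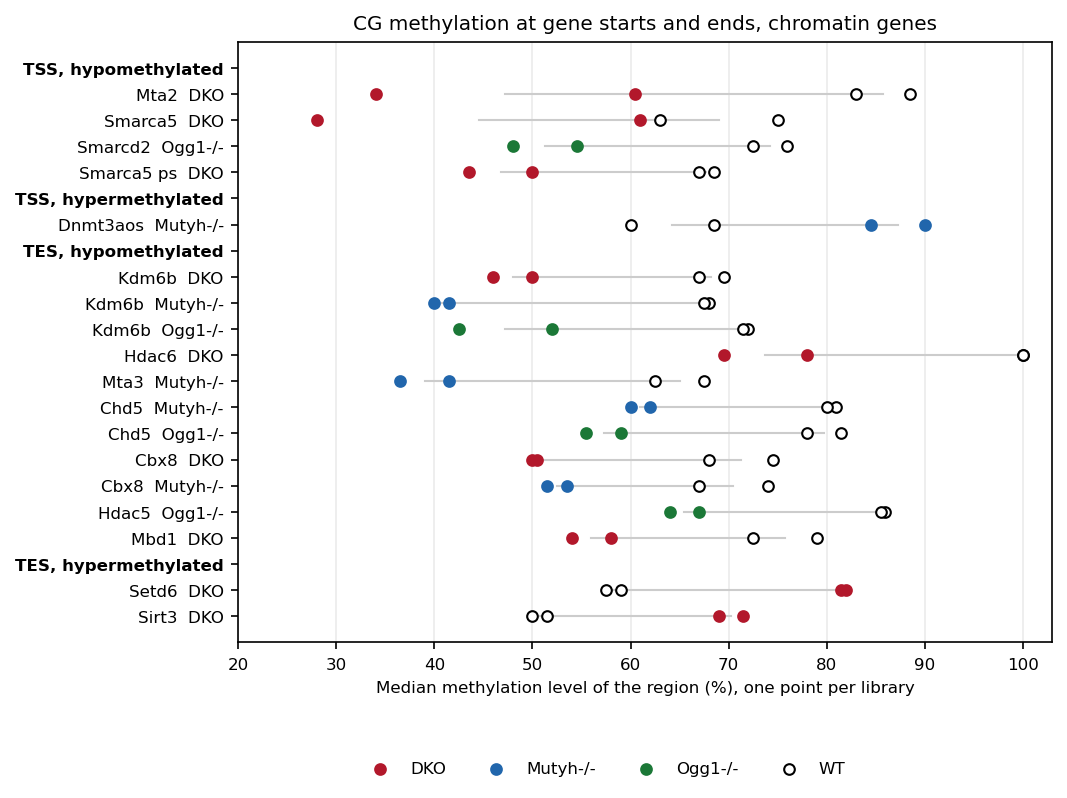
Median CG level of each called TSS and TES window (x axis, percent), 1 row per gene and genotype, with filled points for the 2 knockout libraries, open points for the 2 WT libraries and a grey line between the group means. Mta2 and Smarca5 have the most widely spaced DKO libraries, and Kdm6b lies left of WT in all 3 genotypes.

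In gene bodies, 18 of 25 CG regions were losses (72%), beside 48.2% of the 2620 gene-body regions of all genes. Over all genes the direction went with length: losses made up 90.1% of called bodies up to 30 kb, 68.7% of those up to 100 kb, 33.6% of those up to 300 kb and 5.21% of longer ones. The chromatin genes followed the same order with higher shares of losses in each class, 5 of 5, 6 of 7, 5 of 8 and 2 of 5. The 2 losses over 300 kb were Arid1b and Prdm16 in Mutyh-/-, which had regions of 351 kb and 319 kb. The counts are small and the difference from all genes was not tested. The 18 losses spanned 4.29 to 351 kb (median 80.0 kb, all genes 30.5 kb) and the 7 gains 70.9 to 868 kb (median 224 kb, all genes 305 kb). The density of CG sites was a median of 14.0 per kb in the losses and 6.90 per kb in the gains, beside 12.1 and 6.84 per kb over all genes.

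Kmt2a, which codes for the H3K4 methyltransferase MLL1, was called in DKO and Mutyh-/-. It had 59% and 58% in DKO, against 78.5% and 76.5% in WT, and 54.5% and 56.5% in Mutyh-/-, against 78% and 73.5% in WT. The differences were -19.0 and -20.3 points over a body of 75.9 kb (chr9:44804355-44880274). Setd2, the methyltransferase that trimethylates H3K36, had 71% and 61% in Mutyh-/-, against 97% and 80% in WT, with wide spread in both groups. Kmt2e, a PHD-finger relative of MLL1, had 60.5% and 65% in Ogg1-/-, against 85.5% and 78% in WT.

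Among the demethylase genes, Kdm6a and Kdm5c are X-linked. Kdm6a, which codes for the H3K27 demethylase UTX, had 61% and 77.5% in DKO, against 98% and 88% in WT. Kdm5c, an H3K4 demethylase gene mutated in human X-linked intellectual disability, had 75% and 79% in Ogg1-/-, against 100% in both WT libraries. Hdac6 had 80% and 78% in its body in Ogg1-/-, again against 100% in both WT libraries, next to the TES window that was called in DKO. Of the 4 X-linked CG losses, 3 had both WT libraries at 100% and none of the 29 autosomal losses did, with median WT levels of 100% and 75.8%. Over all genes, both WT libraries were at 100% in 63 of 216 X-linked and 5 of 2549 autosomal losses.

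The PR-domain gene Prdm2, which codes for the tumour suppressor RIZ, had the largest gene-body loss in DKO, with 67.5% and 63%, against 86.5% and 95% in WT (-25.5 points). A second, shorter transcript window of Prdm2 gave -23.8 points. Prdm16, a transcription factor of neural stem cells and brown fat, had 57.5% and 61% in Mutyh-/-, against 80% and 81% in WT.

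Sirt4, a mitochondrial sirtuin, was called in both single knockouts. It had 50.5% and 53% in Mutyh-/-, against 71% and 71.5% in WT, and 47.5% and 52.5% in Ogg1-/-, against 71.5% and 70% in WT. Its body was short, at 4.29 kb in the Mutyh-/- entry and 4.48 kb in that of Ogg1-/-, whose shorter transcript gave -22.0 points.

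Of the ARID genes, Arid3c, a DNA-binding ARID protein, had 50% and 43% in DKO, against 70.5% and 65.5% in WT. Arid4b, a Sin3 complex subunit, had 75.5% and 71% in Ogg1-/-, against 96% and 93% in WT, and Arid1b, a BAF subunit whose loss causes Coffin-Siris syndrome in humans, had 56.5% and 55.5% in Mutyh-/-, against 75.5% and 73% in WT. Each was called in 1 genotype, as were 25 of the 33 combinations of gene and feature. A further 6 were called in 2 genotypes and 2 in all 3, beside 2452, 563 and 260 of 3275 over all genes.

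**Figure D2:**
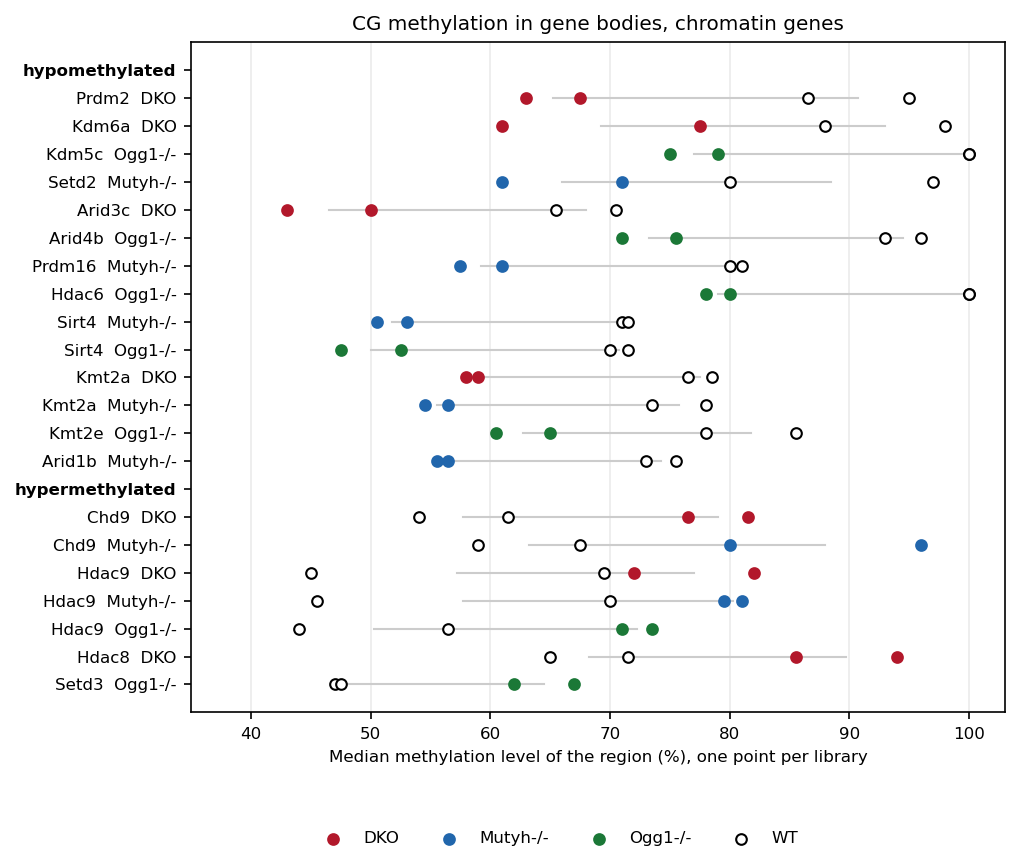
Median CG level of the called gene bodies described (x axis, percent), 1 row per gene and genotype, with filled points for the 2 knockout libraries, open points for the 2 WT libraries and a grey line between the group means. Most losses have WT levels above 70%, and at Hdac9 the WT libraries lie far apart.

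Gene-body gains were confined to 4 genes among those called: Hdac9, Chd9, Hdac8 and Setd3. Hdac9, a class IIa deacetylase, was the only gene body called in all 3 genotypes and, at 868 kb (chr12:34048582-34916095, 5988 CG sites), the longest. It had 72% and 82% in DKO, against 45% and 69.5% in WT, with the nearest libraries 2.5 points apart. It had 79.5% and 81% in Mutyh-/-, against 45.5% and 70% in WT, and 71% and 73.5% in Ogg1-/-, against 44% and 56.5% in WT. Replicate 1 of WT was lowest in each comparison. The gains were 19.8 points in DKO, 22.5 in Mutyh-/- and 22.0 in Ogg1-/-, and over the pairs without that WT library 18, 19.5 and 18.5 points. These cannot be read off the mean levels, since a DKO library shifted by up to 36 points and a WT library by up to 23 points between pairs in the DKO comparison, and a Mutyh-/- library by up to 25 points in that of Mutyh-/-.

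Chd9, a chromodomain helicase, gained CG methylation over 224 kb (chr8:90829835-91053508) in DKO and Mutyh-/-. It had 81.5% and 76.5% in DKO, against 61.5% and 54% in WT, and 96% and 80% in Mutyh-/-, against 59% and 67.5% in WT. Hdac8, an X-linked class I deacetylase that acts on the cohesin subunit SMC3, had 94% and 85.5% in DKO, against 65% and 71.5% in WT. Hdac8 was the only X-linked gain among these genes. Setd3, an actin histidine methyltransferase, had 67% and 62% in Ogg1-/-, against 47% and 47.5% in WT, which was the smallest gain, at 17.3 points.

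**Figure D3:**
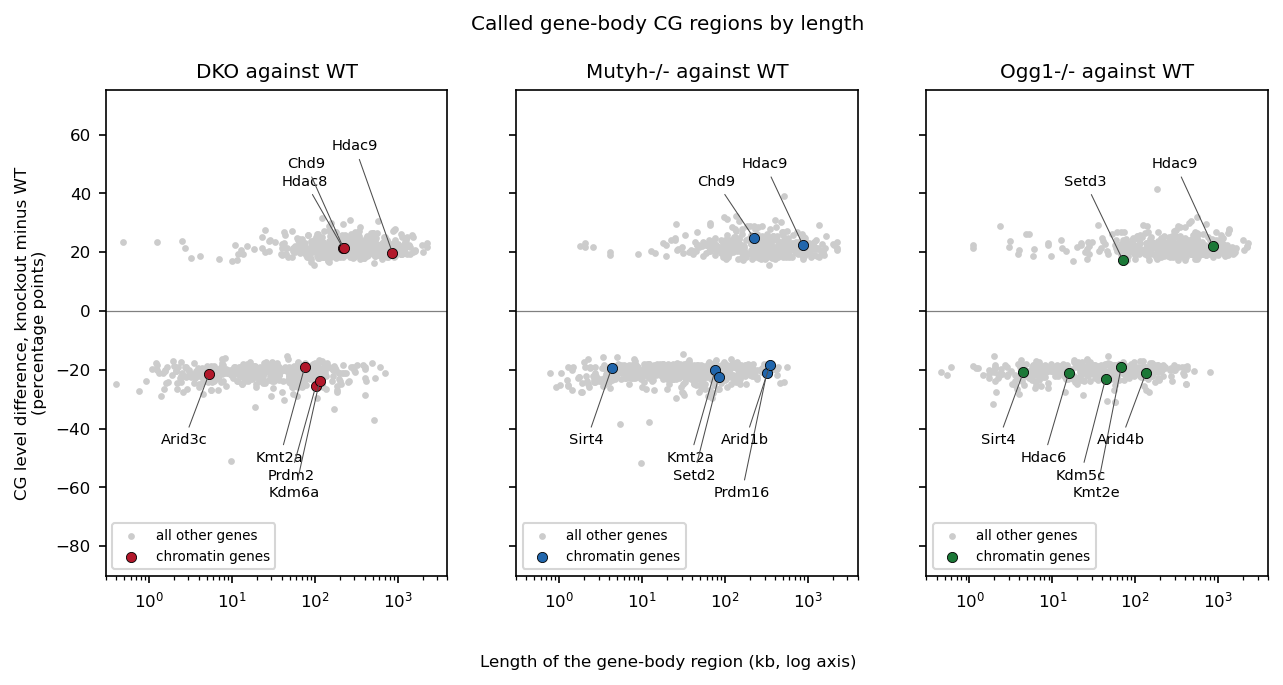
CG level difference of called gene bodies (y axis, knockout minus WT, percentage points) against the length of the region (x axis, kb, log scale), with coloured points for the chromatin genes described and grey points for all other genes, 1 panel per genotype. No called region lies near 0, Hdac9 is the longest chromatin gene body in each panel at 868 kb, and the shortest gain among the chromatin genes is that of Setd3 at 70.9 kb.

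CHH sites, cytosines followed by 2 bases other than guanine, are methylated in neurons mainly by Dnmt3a. No CHH region of these genes was called in DKO (0 of 141 protein-coding members, all genes 3.17%). CHH regions were called in 6 of 141 in Mutyh-/- (4.26%, all genes 5.5%) and in 8 of 141 in Ogg1-/- (5.67%, all genes 7.02%). The shares were thus below the background in each genotype, while those for CG were above it, and neither difference was tested. All 15 CHH regions were losses, as were 98% of CHH regions of all genes in DKO, 99.5% in Mutyh-/- and 99.8% in Ogg1-/-. The median difference was -18.8 points (all genes -18.5) at a median WT level of 43.5% (all genes 42.8%). CHH levels this high are medians over the cytosines kept by the tool and do not give the level over all CHH sites.

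PR-domain genes held 6 of the 15. Prdm16 was the only gene with a CHH region at the TES as well as in the body, both in Ogg1-/-. The body (chr4:154317125-154635873) had 31.5% and 25% in Ogg1-/-, against 56.5% and 48% in WT, the largest CHH loss at -24.0 points, and the TES window (chr4:154315125-154317124) had 25.5% and 21.5%, against 47% and 37% in WT. Single calls were made for Prdm10, a zinc-finger protein, in Mutyh-/- and for Prdm1, which codes for the repressor Blimp-1, in Ogg1-/-, with differences of -18 and -16.5 points.

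Chd9 and Prdm16 were the only genes with both CG and CHH regions. In Mutyh-/- the Chd9 body that gained CG methylation lost CHH methylation, with 18% and 23%, against 41% and 38% in WT. Its CHH levels in Ogg1-/- were 23% and 24.5%, against 45.5% and 41% in WT, where no CG region of Chd9 was called. In DKO only the CG gain was called, with no CHH region. At Prdm16 both contexts fell, CG in Mutyh-/- and CHH in Ogg1-/-.

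Smarca2, which codes for the BAF ATPase BRM, had 20% and 23% CHH methylation in Ogg1-/-, against 42.5% and 44.5% in WT (-22.0 points). A WT library shifted by up to 11 points between its pairs there, and the same-numbered pairs alone gave -17 points. Dnmt3b, a de novo DNA methyltransferase gene, had 31.5% and 21.5% in Mutyh-/-, against 42.5% and 48% in WT. Mbd2, which binds methylated CG sites and recruits NuRD, had 30% and 38.5% in Ogg1-/-, against 50% and 56% in WT. Hdac7, a class IIa deacetylase, had 27% and 21.5% in Ogg1-/-, against 52% and 37.5% in WT. Other CHH losses were Hdac4 (-17.8 points) and Chd7 (-15.3 points), the CHARGE syndrome remodeller, in Mutyh-/-, and Kdm2b (-19.5 points), a CpG-binding H3K36 demethylase, in Ogg1-/-. No CHG region of these genes was called in any genotype, and over all protein-coding genes CHG regions were called in 0%, 0.00457% and 0.0183% in DKO, Mutyh-/- and Ogg1-/-.

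**Figure D4:**
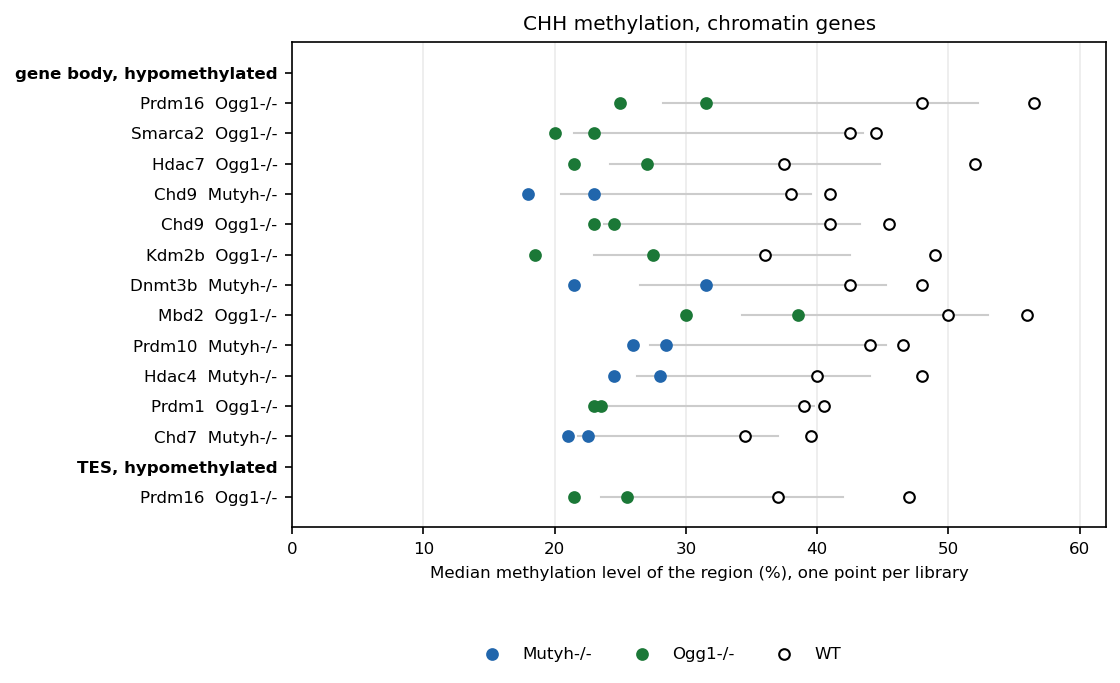
Median CHH level of the called regions described (x axis, percent), 1 row per gene and genotype, with filled points for the 2 knockout libraries, open points for the 2 WT libraries and a grey line between the group means. Every region shown lies left of WT, and none was called in DKO.

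Shares of genes called by class are set beside the 20.2% of all protein-coding genes with any region. The deacetylases had 8 of 18 genes called (44.4%), with 5 CG gains, 5 CG losses and 2 CHH losses. Of the 10 CG gains of all chromatin genes, 5 were thus in Hdac8, Hdac9 and Sirt3. The class IIa deacetylases Hdac4, Hdac5, Hdac7 and Hdac9 each had a region. Of the class I deacetylases, Hdac8 had one, and Hdac1, Hdac2 and Hdac3 had none. The NuRD subunit genes Mta2 and Mta3 each had 1 CG loss, while Mta1 and the related genes Chd3, Chd4 and Mbd3 had no region. Of 10 further NuRD, Sin3 and CoREST partner genes, 1 had a region (10%), below the share of all protein-coding genes. The nucleosome remodellers had 9 of 32 protein-coding genes called (28.1%), with 8 CG losses, 2 CG gains and 4 CHH losses when Smarca5 ps was included.

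The PR-domain genes had 5 of 14 called (35.7%). The lysine methyltransferases, with 5 of 22 (22.7%), and the demethylases, with 4 of 18 (22.2%), were near the share of all genes. The demethylases had only losses, 5 in CG and 1 in CHH. The methyl-mark readers, among them Cbx8, Mbd1 and Mbd2, had 4 of 16 genes called (25%), also near that share. They again had losses only, 4 in CG and 1 in CHH. Over all genes, losses made up 63.3% of CG and 99.3% of CHH regions, so with so few regions this direction does not set either class apart. Of the 7 genes for DNA methylation enzymes, Dnmt3b alone was called. No region was called in Dnmt1, Dnmt3a, Tet1, Tet2 or Tet3, in the PRC2 methyltransferase genes Ezh1 and Ezh2, or in Ehmt1 and Ehmt2, whose products methylate H3K9. Whether these genes had enough covered cytosines to be tested is not known.

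Chromatin genes outside these families were counted from a list of known partners. Of 119 further genes for Polycomb, COMPASS, NuRD, SWI/SNF and other chromatin proteins, 21 had a region (17.6%, all protein-coding genes 20.2%), with 12 CG losses, 7 CG gains and 15 CHH losses. Losses made up 63.2% of their CG regions, beside 63.3% over all genes, so the list as a whole was near the background. Atrx, an X-linked remodeller, gained CG methylation in its body in all 3 genotypes. It had 100% and 91% in DKO, against 70% and 78.5% in WT. In Mutyh-/- it had 90.5% and 93%, against 60.5% and 73.5% in WT, and in Ogg1-/- 80% and 92.5%, against 68% and 64.5% in WT. No library ranges overlapped, and the gains were 21.3, 24.8 and 20 points.

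Jarid2, a PRC2 subunit, lost CHH methylation in its body in all 3 genotypes, with differences of -16.5 points in DKO, -19.5 in Mutyh-/- and -16.3 in Ogg1-/-. It was the only PRC2 partner of 10 with a region. Phc2, a PRC1 subunit, had opposite CG calls in DKO. At its TSS it had 74.5% and 64.5%, against 47% and 47.5% in WT. Its body had 51% and 48.5%, against 71% and 71.5% in WT. The TSS window (chr4:128687738-128689737) lies inside the called body region (chr4:128655702-128751881), so the start used is internal to that region. Nsd1, an H3K36 methyltransferase gene, had 50% and 53.5% at its TSS in DKO, against 73% and 79% in WT. Of the 5 further DNA methylation readers and cofactors, none had a region.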

How the data were processed

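Hippocampal DNA of 8 libraries was bisulfite sequenced. Per the submitters' processing notes, the authors checked reads with FastQC and aligned them to GRCm38 with Bismark 0.22.3. They dropped cytosines with a coverage under 4 and called regions with HMST-Seq-Analyzer in each of the CG, CHG and CHH contexts, asking for at least 3 sites at a TSS or TES and 5 in a gene body, at most 200 bp apart. The deposited medians are a score between 1 and 2, read here as 1 plus the methylated fraction, so that the level in percent is the score minus 1, times 100. The other deposited columns are the authors' own comparison, a relative ratio score and Wilcoxon p-values per library pair. They are not printed, and the deposited p-value served only as a threshold in 1 alternative. Regions tested but not called were not used here.

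Starts were changed to 1-based coordinates, and a gene with several entries was represented by its longest region. Levels were averaged over the 2 pairs of a library with pandas 2.3.3 in python 3.11.15, and CG sites in the regions were counted with pysam 0.24.0. All 42 symbols matched RefSeq. Counts and medians were tested on simulated data. No test was run on the called regions, which their values had selected. The members, classes, partner list and naming rule were chosen with earlier results of these data known. The rule named every member with a CG region in 2 or 3 genotypes, the 3 largest CG differences of each genotype, direction and feature, the 3 largest CHH losses of each genotype, every region of the Ezh, Cbx, Mbd, Dnmt and Tet genes, and genes with both contexts. Remaining regions were added after their values were seen. Some items in the counts are not reported by name here. Alternatives were stricter thresholds, counting every entry, leaving out Prdm genes, leaving out each library and pairing libraries by number.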

Additional observations from a re-analysis of the deposited data

How the results depend on the processing

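A stricter relative ratio of 0.15 in all pairs was planned for the deposited ratio, which was not run, and was applied to the ratio recomputed from the medians, a choice made after seeing the data. With it, 2 CG losses remained in Mutyh-/-, Kdm6b and Mta3 at the TES. The other counts under that threshold were 0, for CG losses in DKO and Ogg1-/-, for CG gains in all 3 genotypes and for CHH losses in both single knockouts. With a deposited p of at most 0.001 in all pairs, CG losses numbered 6 in DKO and 6 in Ogg1-/-, CG gains 0 in DKO, 0 in Mutyh-/- and 1 in Ogg1-/-, and CHH losses 3 in Mutyh-/-. Without Prdm genes, CHH losses in Ogg1-/- numbered 5. The other 95 alternative values of counts and medians stayed within 1.5 times the count reported, or within the replicate spread of the median. Counts of 0 that stayed 0 are among them. None changed direction, which the demand for the same sign in all pairs fixed in advance.

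The labels give the libraries replicate numbers but no shared litter or day. With the replicate block, that is, over the same-numbered pairs only, the median CG losses were -21.5 points in DKO, -20.25 in Mutyh-/- and -20.5 in Ogg1-/-, and all 8 medians with a block value moved by less than the spread between replicates. Leaving out each library in turn changed no direction, and none of the 58 single regions moved by over 1.5 times. Each of these values, like each block value, is a mean over pairs that all passed the call. The call thus kept their sizes from falling far, as it fixed their direction, so they do not test the calls. Relative to its full value, the Prdm16 body in CHH in Ogg1-/- moved most, by 1.37 times (-30.5 to -17.5 points). In points, the widest range was that of the Mta2 TSS in DKO, -48.5 to -28.5. Coverage per region is not known, so the part of depth in a call was not tested.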
